A study of Mus musculus with 15 samples.

Results

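The 26S proteasome is the protease that degrades ubiquitin-tagged proteins. Its subunits are encoded by the Psma, Psmb, Psmc and Psmd genes. The genes described here are those with a Psma, Psmb, Psmc or Psmd symbol followed by a number, leaving out Psmb8, Psmb9 and Psmb10, the 3 inducible subunits of the immunoproteasome. They are 36 of the 38924 genes in the files, with 8 alpha ring genes (Psma), 8 beta ring genes (Psmb), 6 ATPase genes (Psmc) and 14 lid or base genes (Psmd). The rule goes by symbol and uses no expression value, but it was set with earlier results of these data known. The 15 RNA-seq libraries were made from CD11b+ brain cells of male C57BL/6J wild-type mice at 12 months of age, sorted by FACS into cells with high (CD45hi) or low (CD45lo) surface CD45, a protein tyrosine phosphatase of blood-derived cells. The mice had been kept on control chow (CD, LabDiet 5K52) or fed a western diet (WD, TestDiet 5W80) from 2 months of age, which gave 4 CD CD45hi, 4 CD CD45lo, 3 WD CD45hi and 4 WD CD45lo libraries. The strain was the same in all groups and no group carried a transgene. The CD45hi gate is a mixture that holds microglia beside infiltrating cells, and CD45lo cells are mainly microglia.

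The core particle is a barrel with alpha rings at its ends and beta rings inside. The alpha subunits gate the entrance, and 3 of the beta subunits carry the active sites. The cap has a base, in which 6 ATPases unfold the substrate, and a lid, which removes the ubiquitin chain. Cells keep the subunits in fixed proportion within the particle, and interferon exchanges the 3 active beta subunits for inducible ones that favour peptides for MHC class I, a switch known in microglia and other myeloid cells. The symbols also take in genes that are not subunits of this particle in most tissues. Psma8 encodes an alpha subunit of testis, Psmb11 a catalytic subunit of thymic epithelium, and Psmd5, Psmd9 and Psmd10 encode chaperones that assemble the base.

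The core promoters of 4 genes are shown first, because 2 of them, Psma2 and Psma7, gave the only calls of the main test and the other 2, Psmb5 and Psmb6, encode active subunits with a match to the core of the antioxidant response element, the sequence bound by Nfe2l1 and Nfe2l2. Each line holds the 110 bases that end just before the transcribed part in both RefSeq and GENCODE M21, from RefSeq on GRCm38.p6 (mm10), 5′ to 3′ on the strand of the gene. Capitals mark, on either strand, the antioxidant response element core, the CCAAT box and the GC box, whose letters are given after the sequences.
Psma2, chr13:14613130-14613239, plus strand: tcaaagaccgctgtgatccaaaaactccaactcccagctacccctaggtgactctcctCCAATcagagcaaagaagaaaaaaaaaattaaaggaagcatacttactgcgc
Psma7, chr2:180042465-180042574, minus strand: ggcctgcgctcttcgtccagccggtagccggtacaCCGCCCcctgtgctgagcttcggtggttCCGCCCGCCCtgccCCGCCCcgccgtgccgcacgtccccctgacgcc
Psmb5, chr14:54618023-54618132, minus strand: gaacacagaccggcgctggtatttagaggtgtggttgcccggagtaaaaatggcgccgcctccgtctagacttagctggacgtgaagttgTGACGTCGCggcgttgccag
Psmb6, chr11:70525247-70525356, plus strand: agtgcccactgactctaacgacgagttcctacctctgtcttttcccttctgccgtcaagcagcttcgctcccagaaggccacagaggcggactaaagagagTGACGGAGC

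RefSeq promoters of 300 bases, 250 before and 50 after the start, were matched by symbol for 29 of the 36 genes. The antioxidant response element core, spelled TGACNNNGC, was found in 5 of the 29 (Psmb5, Psmb6, Psmc6, Psmd9 and Psmd12), against 13.99% of 27025 genes. The CCAAT box, spelled CCAAT, was found in 12 of 29, against 41.1% of genes, and the GC box, spelled GGGCGG, in 18 of 29, against 38.2% of genes. The TATA box, spelled TATAAA, was found in 3 of 29, against 15.7% of genes. Both strands were searched, and matches may overlap, as neighbouring GC boxes do before Psma7. The 110 bases before Psma2 hold a CCAAT box and those before Psma7 hold GC boxes, while the longer promoters of both genes hold both motifs. A match is a description of the letters and no measure of binding.

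The 36 genes lie on 16 chromosomes. Psma2 is at chr13:14613240-14674236 on the plus strand and Psma7 at chr2:180036374-180042433 on the minus strand (GENCODE M21, the same build as the files). The catalytic genes Psmb5, Psmb6 and Psmb7 are at chr14:54614119-54618022 (minus), chr11:70525367-70527858 (plus) and chr2:38588036-38644087 (minus). The values are sums over all transcripts and exons of a gene. In 22 of the 36 genes the deposited count was whole in every library, so that no read had been divided with another gene. Psma3, Psmb11, Psmc2 and Psmd11 had fractional counts in all 15 libraries, and their levels are uncertain to that extent. The sources used here do not say whether reads were counted by strand, so reads cannot be told apart from those of a gene on the other strand for Psma2, Psma3, Psma4, Psma5, Psma6, Psmb7, Psmc3, Psmd1, Psmd3, Psmd5, Psmd9, Psmd13 and Psmd14, which overlap one. Psma2 also overlaps AW209491 on its own strand, and Psma7 overlaps no other gene.

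Total expected counts were 11951412 to 17912272 per library, and 3 counts correspond to 0.156 to 0.282 cpm (counts scaled to one common library size), which covers counting error only. All 36 genes passed the filter of at least 1 cpm in at least 2 libraries, as did 14967 of 38924 genes. Mitochondrially encoded genes held 17.7% to 20.5% of the counts in CD45hi libraries and 7.99% to 10.9% in CD45lo libraries, and 14120 to 15540 genes had at least 1 count in CD45hi against 16067 to 17929 in CD45lo libraries. The 8 microglial markers summed to 5670 to 6935 cpm in CD45hi and 11953 to 15265 cpm in CD45lo libraries. The 6 monocyte markers found in the files (of 7 listed) summed to 406 to 827 against 11.4 to 53.2 cpm, the 8 neutrophil markers to 1385 to 3750 against 636 to 1277 cpm, and the 6 markers of border macrophages to 765 to 2715 against 65.6 to 242 cpm. The 9 lymphocyte markers summed to 11.8 to 102 cpm in CD45hi and at most 0.675 cpm in CD45lo libraries, with Cd3e at 0 counts in 3 of the 4 groups. Each comparison between CD45 levels below moves with these values, and their part in it was not tested. Fewer cells of a type and less RNA per cell cannot be told apart in these bulk libraries.

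Per transcript length, the subunit genes were expressed at a median of 49.2 TPM, the deposited unit that divides by transcript length. The alpha ring was highest, with a median of 93.3 TPM over its 8 genes, followed by the beta ring at 57.9, the ATPases at 47.2 and the lid or base genes at 33.9 TPM. The ATPases were the most even role, with 2.38-fold between the highest, Psmc2 (87.4 ± 27.9 TPM, SD, n = 15 libraries), and the lowest, Psmc6 (36.7 ± 17.3 TPM), although Psmc4 was the lowest in both groups of WD-fed mice (25.1 and 40.5 TPM).

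In the alpha ring the levels ran from Psma7 at 147 ± 38.9 TPM, the highest of the 36 over the 15 libraries, to the testis gene Psma8 at 4.90 ± 7.97 TPM. In the beta ring they ran from Psmb4 at 132 ± 38.7 TPM, a non-catalytic subunit, to the thymic gene Psmb11 at 1.28 ± 0.300 TPM. Over the 15 libraries Psma8 and Psmb11 were the 2 lowest genes, and the assembly chaperone Psmd9 came next at 8.09 ± 5.49 TPM. In the lid or base, Psmd6, a lid scaffold subunit, was highest at 64.0 ± 28.6 TPM. These ranks did not hold in every group. In WD CD45hi cells Psma2 (132 TPM) and Psmb4 (116 TPM) stood above Psma7 (115 TPM), and Psmd4, the ubiquitin receptor, stood at 69.8 TPM against 27.4 TPM for Psmd6. In CD CD45hi cells Psma8 (8.99 TPM) stood above Psmd9 (7.81 TPM). Neighbours in the order, such as Psma7 and Psmb4, lay within each other's SD.

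The summed level of the 36 genes overlapped between all groups. It was 1229, 1310, 1268 and 1599 cpm in the CD CD45hi libraries and 1455, 1187, 1470 and 1342 cpm in the CD CD45lo libraries. In WD-fed mice it was 1215, 1268 and 1432 cpm in CD45hi and 1244, 1295, 1274 and 1261 cpm in CD45lo libraries. No group stood apart, with group means of 1351 ± 168 (SD, n = 4), 1363 ± 131 (n = 4), 1305 ± 113 (n = 3) and 1269 ± 21.7 cpm (n = 4) in that order. These cpm are scaled by TMM, which aligns the bulk of the genes. On the TPM scale, which is set by the whole library with its mitochondrial transcripts, the sum was lower in CD45hi cells without overlap, at 1548 to 1911 against 1913 to 2560 TPM in CD-fed mice and 1532 to 1921 against 1983 to 2197 TPM in WD-fed mice. In CD-fed mice the mean sum was lower in CD45hi cells on both scales, by less than the spread between replicates in cpm. In WD-fed mice the direction of the mean turned between the scales.

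**Figure D1:**
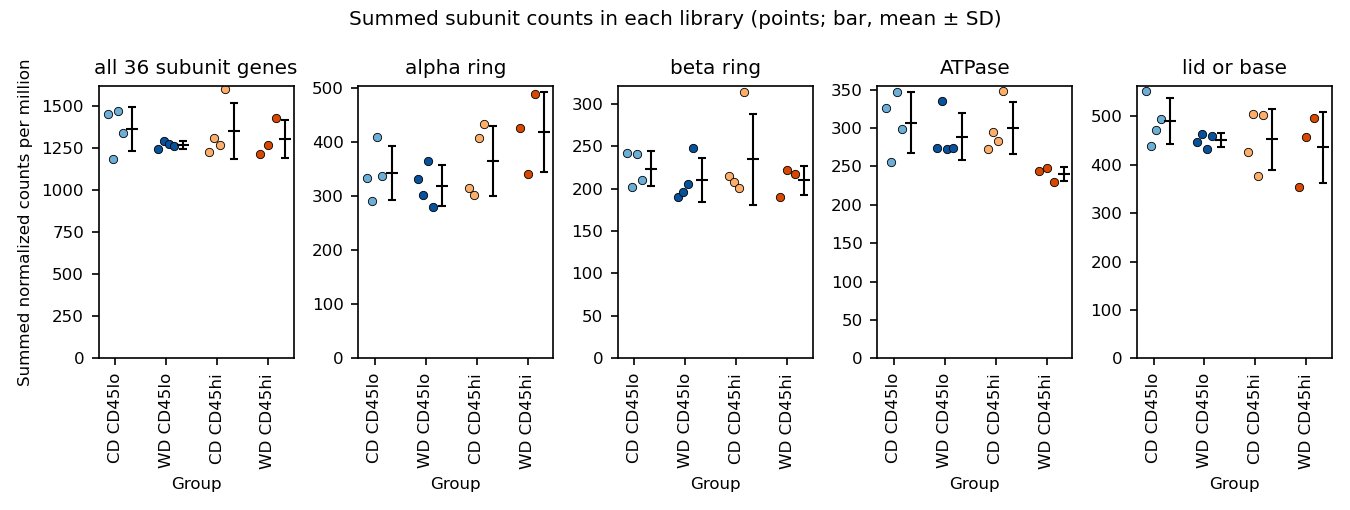
Summed normalized counts, cpm (y axis, from 0) of all 36 subunit genes and of the genes of each role, with 1 point per library by diet and CD45 level, and the mean ± SD beside the points. The sums of all 36 genes overlap between the 4 groups (1187 to 1599 cpm). The ATPase sums of the 3 WD CD45hi libraries (230 to 247 cpm) lie below those of every other library, an order that does not hold without Psmc2.

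By role, the sums of the ATPases set the WD CD45hi libraries apart, in cpm through Psmc2. The 8 alpha ring genes summed to 365 ± 65.1 cpm in CD CD45hi, 343 ± 49.3 in CD CD45lo, 419 ± 74.5 in WD CD45hi and 320 ± 37.3 cpm in WD CD45lo cells (SD). In TPM the alpha ring mean of WD CD45hi cells (638 TPM) was below those of CD CD45lo (748 TPM) and WD CD45lo cells (698 TPM). The ATPase sum was 244, 247 and 230 cpm in the WD CD45hi libraries, against 256 to 347 cpm in CD CD45lo, 272 to 349 cpm in CD CD45hi and 272 to 335 cpm in WD CD45lo libraries. The WD CD45hi libraries were thus the 3 lowest of the 15 for the summed ATPases, as they were in TPM (207 to 225 TPM, against 237 to 465 TPM elsewhere). Psmc2 stood at 88.6, 91.4 and 91.4 cpm in these libraries and at 96.4 to 194 cpm in the others. Without Psmc2, whose counts were fractional in all 15 libraries, they were not the 3 lowest in cpm. No single ATPase passed the test between any groups, and the sum was not tested.

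Single subunits varied far more between replicates than their sum did in CD45hi cells. The median SD of log2(cpm + 0.5) over the 36 genes was 0.74 in CD CD45hi and 0.54 in WD CD45hi cells, against 0.23 in CD CD45lo and 0.24 in WD CD45lo cells. Counting error accounts for a median of 0.08 in either CD45hi group. The SD was larger in CD45hi than in CD45lo cells for 33 of the 36 genes in CD-fed mice and for 28 of 36 in WD-fed mice. This spread is shared with the other genes, because of the 8253 genes with a mean of at least 10 cpm the SD was larger in CD45hi cells for 89.9% in CD-fed and 84.3% in WD-fed mice. The median SD of those genes was 0.60 in CD CD45hi and 0.64 in WD CD45hi cells. It was 0.23 in CD CD45lo and 0.26 in WD CD45lo cells. The subunit genes were thus above that median in CD CD45hi and below it in WD CD45hi cells.

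The highest library was over 4-fold above the lowest for 13 of the 36 genes in CD CD45hi and 5 in WD CD45hi cells, but for 1 in CD CD45lo and 0 in WD CD45lo cells. The share of all genes over 4-fold is not given here. With any 3 of the CD CD45hi libraries the median SD was 0.65 to 0.86. In the same group the coefficient of variation was 50.3% for the median gene and 12.4% for the sum. A sum of many genes varies less than its parts wherever these do not move together. The library with the lowest value was CD CD45hi 3 for 16 genes, CD CD45hi 4 for 10, CD CD45hi 2 for 7 and CD CD45hi 1 for 3.

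**Figure D2:**
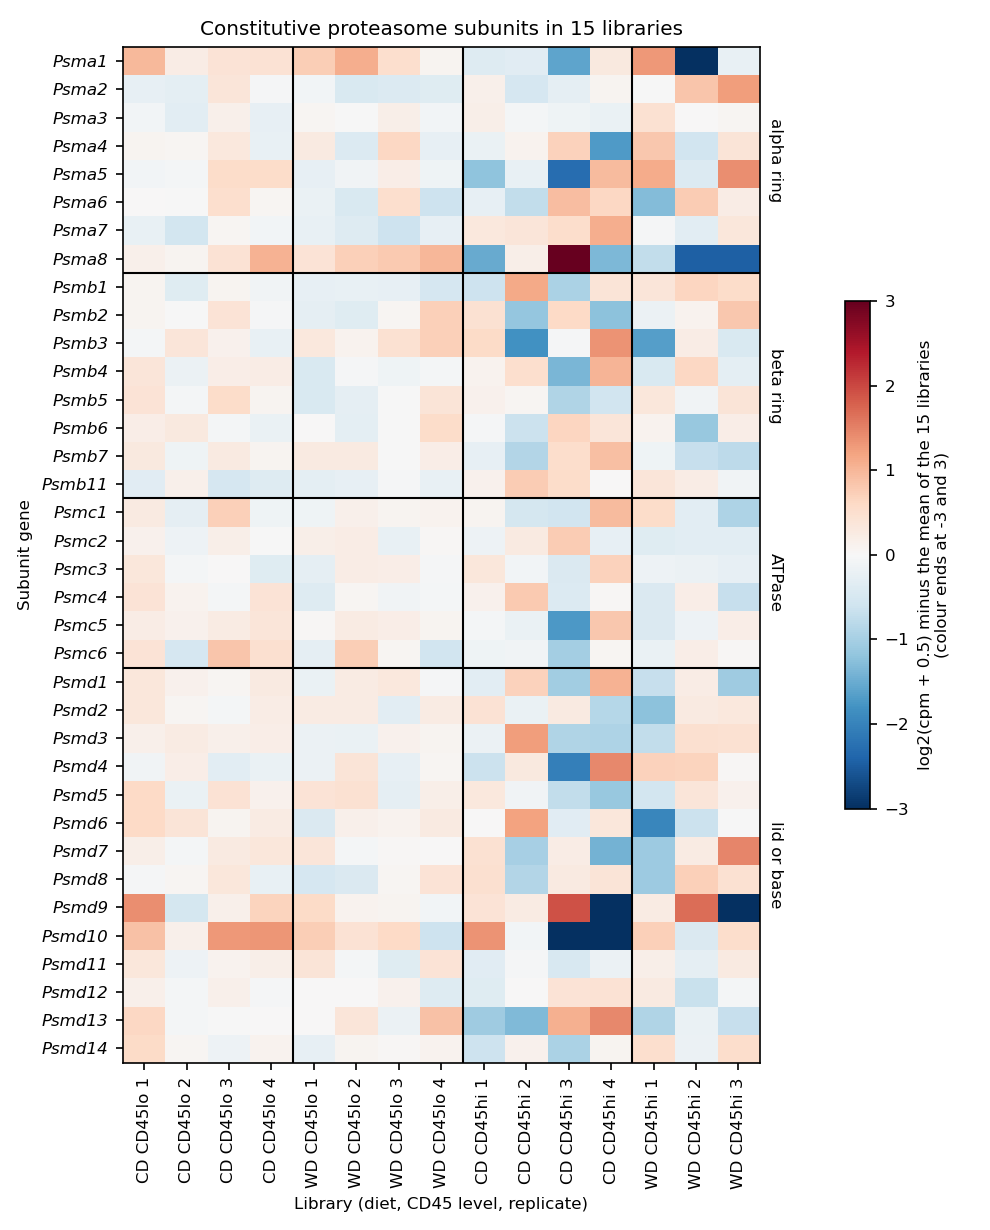
The 36 subunit genes (rows, by role) in the 15 libraries (columns), as log2(cpm + 0.5) minus the mean of the gene over all libraries, from blue (lower) to red (higher), with colours cut at -3 and 3. The CD45lo columns are mostly pale, and the CD45hi columns hold most of the strong colours, in different genes in each library.

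The widest spreads were in an assembly chaperone pair and 2 alpha subunits. Psmd10, or gankyrin, a chaperone of the base, stood at 32.5, 11.7, 0.440 and 1.03 cpm in the CD CD45hi libraries and at 23.2, 13.9, 31.2 and 31.9 cpm in CD CD45lo. It was at 20.8, 9.12 and 18.2 cpm in WD CD45hi and at 21.2, 17.0, 19.1 and 7.88 cpm in WD CD45lo libraries. In CD CD45hi 2 libraries were near the floor and another was above every CD CD45lo library, so the log2 fold change of -1.13 ± 0.85 (SE) between CD45 levels in CD-fed mice, the lowest of the 36, had an adjusted p of 0.531 by edgeR's quasi-likelihood test. It was -2.51 without CD CD45hi 1 and -0.73 without CD CD45hi 3. Psmd9, another chaperone of the base, stood at 11.3, 10.02, 32.5 and 0.386 cpm in CD CD45hi and at 9.97, 27.8 and 0.230 cpm in WD CD45hi libraries. Its CD45lo libraries lay between 5.66 and 22.8 cpm.

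Psma1, an alpha ring subunit, stood at 58.7, 1.54 and 20.2 cpm in the WD CD45hi libraries, a 38.0-fold range, and at 24.9 to 50.8 cpm in WD CD45lo. Psma3, of the same ring, stood at 69.1, 58.8, 56.0 and 53.1 cpm in the CD CD45hi libraries. Subunits of 1 ring thus included a wide and a narrow range. Psma3 was the only one of the 36 genes whose 95% interval between CD45 levels lay within 1.5-fold in CD-fed mice (-0.36 to 0.51 on the log2 scale).

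**Figure D3:**
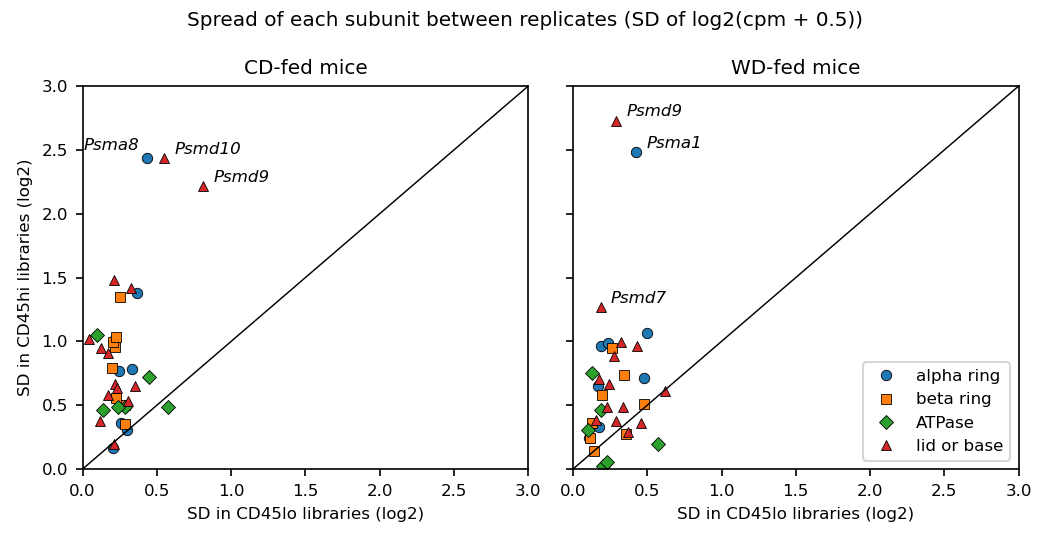
SD of log2(cpm + 0.5) between the CD45hi libraries (y axis) against the CD45lo libraries (x axis) of each of the 36 genes, on each diet, with symbols by role and a line of equal spread. Of the points, 33 lie above the line in CD-fed and 28 in WD-fed mice, and the 3 with the largest CD45hi spread on each diet are named.

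The first comparison asked which subunit genes differ between CD45hi and CD45lo cells. In CD-fed mice 1 of the 36 genes, Psma7, was higher in CD45hi cells and none was lower (edgeR's quasi-likelihood test, Benjamini-Hochberg adjusted p under 0.05). Among all 14967 genes tested 8.03% were called. In WD-fed mice 1 of 36 genes, Psma2, was higher and none lower, against 9.12% of all genes. With a test against a 1.5-fold change (glmTreat), 0 of 36 were called on either diet, against 3.98% and 5.18% of all genes. At an unadjusted p under 0.05 that test gave 0 genes in CD-fed and 2 in WD-fed mice, and DESeq2 and limma-voom called 0 genes over 1.5-fold on both diets. The shares of all genes for these last counts are not given here, so they are a description only. Over the 36 genes the median log2 fold change was 0.08 in CD-fed and -0.03 in WD-fed mice, beside 0.04 and 0.00 over all genes tested, and in CD-fed mice it was below 0 with upper quartile scaling (-0.08) and with library size alone (-0.16).

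Psma7, the alpha subunit with the highest TPM over the 15 libraries, stood at 80.5, 82.4, 93.0 and 138 cpm in the CD CD45hi libraries and at 55.4, 43.7, 66.6 and 60.4 cpm in CD CD45lo. The 2 groups do not overlap. The log2 fold change was 0.80 ± 0.24 (SE), or 1.74-fold with a 95% interval of 1.23 to 2.47, at an adjusted p of 0.0475 (edgeR). In WD-fed mice Psma7 stood at 62.6, 51.7 and 81.9 cpm in CD45hi and 54.7, 49.2, 41.7 and 53.9 cpm in CD45lo cells, where the groups overlap (log2 fold change 0.39 ± 0.26, adjusted p = 0.381, edgeR). The difference between the diets in this effect was -0.41 ± 0.35 with an adjusted p of 0.751 in the interaction test of edgeR. The call in CD-fed mice stood at the threshold. It was lost in 16 of 27 other fits, among them those without CD CD45hi 3 or 4, without any 1 of the 4 CD CD45lo libraries or without any 1 of the 4 WD CD45lo libraries, where the adjusted p was 0.0576 to 0.168. With a replicate block it was 0.151 (numbers of the sample titles) and 0.134 (numbers of the file names).

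Psma2, another alpha ring subunit, stood at 45.1, 81.6 and 110 cpm in the WD CD45hi libraries and at 43.3, 33.02, 34.5 and 35.4 cpm in WD CD45lo. All 3 CD45hi libraries lie above all 4 CD45lo libraries, the lowest by a small margin. The log2 fold change was 1.11 ± 0.31 (SE), or 2.16-fold with a 95% interval of 1.38 to 3.39, at an adjusted p of 0.0291 (edgeR). In CD-fed mice the values were 50.9, 32.1, 37.7 and 48.6 cpm in CD45hi and 38.5, 37.6, 59.3 and 44.996 cpm in CD45lo cells, which overlap (log2 fold change -0.09 ± 0.29, adjusted p = 0.919, edgeR). The interaction of diet and CD45 level was 1.204 ± 0.42 with an adjusted p of 0.369, so that a difference of the effect between diets was not called. Without WD CD45hi 2 or 3, or WD CD45lo 2, 3 or 4, the call in WD-fed mice was lost, with an adjusted p of 0.0559 to 0.123, and with a replicate block it was lost at 0.218 (titles) and 0.153 (file names).

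Psma8 had the highest fold change of the 36 genes between CD45 levels in CD-fed mice and the lowest in WD-fed mice. It stood at 0.459, 2.57, 35.9 and 0.579 cpm in CD CD45hi and at 2.53, 2.39, 3.20 and 5.11 cpm in CD CD45lo libraries. In WD-fed mice it stood at 1.13, 0 and 0 cpm in CD45hi and at 3.15, 4.01, 4.17 and 4.92 cpm in CD45lo libraries. A single library, CD CD45hi 3, held nearly all of its CD45hi counts, while every WD CD45hi library was below every WD CD45lo library. The log2 fold changes of 1.57 ± 1.28 (CD) and -3.45 ± 1.59 (WD, adjusted p = 0.191) did not pass edgeR's test, and the former was -1.46 without CD CD45hi 3. In WD-fed mice limma-voom called Psma8, as did edgeR without WD CD45hi 1, the library with counts, when both Psma2 and Psma8 also passed the 1.5-fold test.

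**Figure D4:**
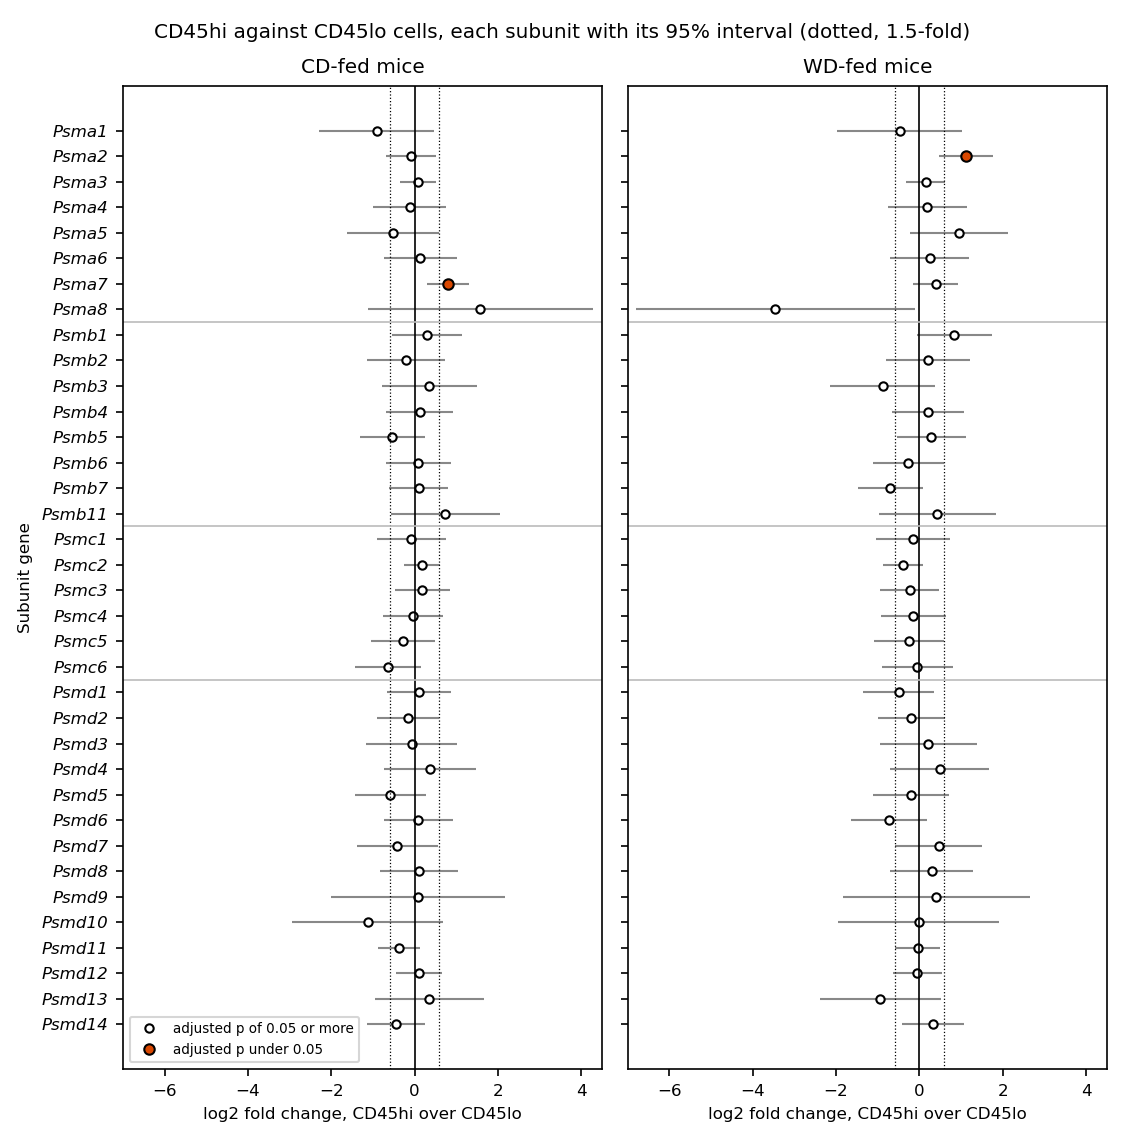
Log2 fold change of CD45hi over CD45lo cells (x axis) for each of the 36 subunit genes (rows, by role) on each diet, with 95% intervals from edgeR and dotted lines at 1.5-fold. Psma7 in CD-fed and Psma2 in WD-fed mice (filled) were the calls, and the other intervals are wide, with a median SE of 0.39 (CD) and 0.42 (WD) on the log2 scale.

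The other 34 genes were not called between CD45 levels on either diet, which does not show that they are alike. In CD-fed mice the 95% interval of 1 gene lay within 1.5-fold and those of 15 within 2-fold, and in WD-fed mice those of 0 and 9 genes. In CD-fed mice the log2 fold change was above 0 for 19 genes and below 0 for 17, and in WD-fed mice for 17 and 19. By role the median was -0.01 for the alpha ring, 0.11 for the beta ring, -0.06 for the ATPases and 0.00 for the lid or base in CD-fed mice. The same medians in WD-fed mice were 0.22, 0.20, -0.20 and -0.03. All 6 ATPases were below 0 in WD-fed mice, from -0.39 to -0.06, and none passed the test.

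The libraries of the 2 CD45 levels did not overlap for 1 of 36 genes in CD-fed mice, against 16.5% of all genes tested, and for 6 of 36 in WD-fed mice, against 23.4%. The 6 were Psma2 and Psmb1 (higher in each CD45hi library) and Psma8, Psmb7, Psmc2 and Psmd13 (lower). Psmb1, a non-catalytic beta subunit, stood at 32.5, 39.4 and 37.0 cpm in WD CD45hi and 21.0, 21.6, 21.2 and 17.4 cpm in WD CD45lo libraries, with an adjusted p of 0.238 (edgeR). Psmd13, a lid subunit, stood at 4.04, 6.91 and 4.75 cpm against 7.999, 10.4, 6.97 and 14.9 cpm, the nearest libraries of the 2 groups being almost equal.

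The catalytic subunits gave no call between CD45 levels. Psmb5, which carries the chymotrypsin-like site, stood at 21.0, 19.96, 10.03 and 12.6 cpm in CD CD45hi and 25.5, 18.3, 28.2 and 20.1 cpm in CD CD45lo libraries. In WD-fed mice it stood at 24.2, 17.7 and 25.2 cpm in CD45hi and at 13.8, 15.8, 18.8 and 24.9 cpm in CD45lo libraries. The groups overlap on both diets. The log2 fold changes were -0.53 ± 0.37 and 0.29 ± 0.39 (adjusted p = 0.478 and 0.719, edgeR).

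Psmb6, with the caspase-like site, stood at 26.02, 17.1, 42.1 and 34.5 cpm in CD CD45hi and 30.6, 32.9, 25.8 and 23.3 cpm in CD CD45lo libraries. Its values were 28.9, 12.0 and 30.8 cpm in WD CD45hi and 27.0, 22.0, 26.6 and 39.4 cpm in WD CD45lo libraries. The CD45hi values surround the CD45lo values in CD-fed mice. The log2 fold changes were 0.09 ± 0.37 and -0.27 ± 0.40.

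Psmb7, with the trypsin-like site, stood at 32.5, 20.7, 56.0 and 71.8 cpm in CD CD45hi and 47.3, 34.9, 46.3 and 41.0 cpm in CD CD45lo libraries. In WD-fed mice it stood at 35.3, 23.5 and 22.2 cpm in CD45hi and at 46.6, 46.4, 38.4 and 44.2 cpm in CD45lo libraries. All 3 WD CD45hi libraries were lower, with a log2 fold change of -0.70 ± 0.37 that did not pass the test (adjusted p = 0.257, edgeR).

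The second comparison asked whether the diet moved these genes. In CD45hi cells 0 of 36 genes were called between WD and CD by edgeR, against 0.254% of all genes. At an unadjusted p under 0.05 there were 5 genes (Psma2, Psma7, Psma8, Psmc2 and Psmd6), or 13.9% of the 36 against 17.6% of all genes. With limma-voom 0 were called and with DESeq2 1, Psma2, with an adjusted p of 0.0308. The shares of all genes called by DESeq2 and limma-voom are not given here, so their counts are a description only. The median log2 fold change was -0.06, beside -0.02 over all genes tested. In CD45lo cells 0 of 36 were called, against 0% of all genes, with 0 at an unadjusted p under 0.05 and 0 by DESeq2 or limma-voom. The median log2 fold change there was -0.11, beside 0.00 over all genes tested, and 24 of the 36 genes were below 0. The 95% interval of the diet effect lay within 2-fold for 17 of 36 genes in CD45lo but for 5 in CD45hi cells. These intervals and tests use an estimate of the spread shared by all groups. They do not measure the precision within CD45lo or CD45hi cells alone.

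Psma2 stood at 50.9, 32.1, 37.7 and 48.6 cpm in CD and at 45.1, 81.6 and 110 cpm in WD CD45hi cells, with a log2 fold change of 0.90 ± 0.31 (adjusted p = 0.154, edgeR). The WD values start within the CD range and exceed it in 2 of 3 libraries. The highest log2 fold change of the diet in CD45hi cells was that of Psma5, another alpha subunit, at 1.12 ± 0.56, with 15.3, 30.8, 6.95 and 69.4 cpm on CD and 78.4, 27.0 and 94.7 cpm on WD. The groups overlap, and its adjusted p was 0.312. With 1 library left out it ranged from 0.78 (without WD CD45hi 3) to 1.91 (without CD CD45hi 4). Psma8 gave the lowest, -4.73 ± 1.68 (adjusted p = 0.166), and without the CD library at 35.9 cpm, CD CD45hi 3, it was -1.69.

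Psmc2 was the one gene whose CD45hi libraries did not overlap between the diets, against 5.77% of all genes tested. It encodes an ATPase of the base. Its values were 102, 137, 194 and 96.4 cpm on CD and 88.6, 91.4 and 91.4 cpm on WD, with a log2 fold change of -0.55 ± 0.23 (adjusted p = 0.228, edgeR). The WD libraries lie close together and just under the lowest CD library. Psmd6 stood at 38.1, 88.7, 29.9 and 48.4 cpm on CD and 9.41, 24.4 and 37.5 cpm on WD, which overlap (adjusted p = 0.207).

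In CD45lo cells the log2 fold changes of the diet ran from -0.62 ± 0.84 for Psmd10 to 0.36 ± 0.54 for Psmb3, a non-catalytic beta subunit. Psmb3 stood at 16.6, 22.4, 19.1 and 14.8 cpm on CD and 21.8, 18.6, 24.0 and 28.9 cpm on WD. The CD and WD libraries overlap for all genes but Psmd3, a lid subunit, against 2.42% of all genes that did not overlap. Psmd3 stood at 13.7, 14.7, 13.8 and 14.3 cpm on CD and 10.9, 10.6, 13.5 and 13.2 cpm on WD, a log2 fold change of -0.23 ± 0.51. That SE is from the fit of all 15 libraries, in which the groups share an estimate of the spread. Psmd3 had an SD of 0.046 (CD) and 0.17 (WD) in CD45lo libraries, and of 1.02 and 0.70 in CD45hi libraries (log2 scale).

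The interaction of diet and CD45 level, which tests whether the difference between CD45 levels itself differed between diets, called 0 of 36 genes by edgeR, against 0.00668% of all genes. At an unadjusted p under 0.05 there were 2 genes, Psma2 and Psma8 (5.56% of the 36, against 10.1% of all genes). DESeq2 and limma-voom called 0, and their shares of all genes are not given here. The largest value was that of Psma5 at 1.46 ± 0.77 (adjusted p = 0.551, and 1.12 to 2.26 with 1 library left out) and the smallest that of Psma8 at -5.03 ± 2.02 (adjusted p = 0.419). The median SE over the 36 genes was 0.58 on the log2 scale.

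The inducible subunits were then set beside the constitutive subunits whose place they take, as a ratio of TPM within each library. Psmb9 replaces Psmb6. The ratio was 3.30, 2.84, 0.957 and 1.91 in CD CD45hi, 2.03, 1.84, 2.17 and 2.68 in CD CD45lo, 5.90, 17.1 and 5.67 in WD CD45hi and 2.19, 2.35, 2.86 and 1.59 in WD CD45lo libraries. The 3 WD CD45hi libraries lie above the 12 others. The highest ratio, 17.1, came with the lowest Psmb6 level of the 15 libraries, 24.0 TPM, while Psmb9 was 354 to 411 TPM in all 3 WD CD45hi libraries.

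Psmb9 itself was higher in CD45hi than in CD45lo cells of WD-fed mice (log2 fold change 1.49 ± 0.22, adjusted p = 0.000256, edgeR) and in WD than in CD CD45hi cells (1.23 ± 0.22, adjusted p = 0.0321). Psmb6 had log2 fold changes of -0.27 ± 0.40 and -0.32 ± 0.40 in the same comparisons, and neither was called. Of the summed markers of other cells in the CD45hi gate, only those of endothelium and pericytes did not overlap between the diets, and no sum was tested. The 8 markers of endothelium and pericytes summed to 67.4 to 88.4 cpm on CD and 98.5 to 109 cpm on WD, without overlap. The neutrophil markers overlapped, at 1595 to 3750 cpm on CD and 1385 to 2360 cpm on WD (means 3129 and 1792 cpm). So did the lymphocyte markers, at 11.8 to 43.8 and 25.5 to 102 cpm (means 21.5 and 59.3 cpm). The astrocyte markers also overlapped, at 45.4 to 87.2 and 57.5 to 244 cpm (means 62.2 and 159 cpm). The same held for the oligodendrocyte markers, at 96.8 to 146 and 94.5 to 225 cpm (means 113 and 167 cpm). The part of these values in the diet comparisons was not tested. The interaction of Psmb9 was 1.23 ± 0.30 (adjusted p = 0.281). Its call between the diets was lost without any 1 of the 8 CD45lo libraries (adjusted p of 0.0504 to 0.0637) and with the CD45hi libraries fitted alone (adjusted p = 0.785).

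Psmb8 replaces Psmb5. The ratio was 2.02, 0.907, 3.82 and 5.16 in CD CD45hi and 0.800, 1.16, 0.758 and 0.968 in CD CD45lo libraries. On WD it was 2.11, 2.23 and 1.52 in CD45hi and 1.14, 0.986, 1.49 and 1.08 in CD45lo libraries. It was higher in CD45hi cells with no overlap in WD-fed mice by a margin of 1.52 against 1.49, and with overlap in CD-fed mice through CD CD45hi 2. Psmb8 alone had log2 fold changes of 0.96 ± 0.32 (CD, adjusted p = 0.0806) and 1.01 ± 0.34 (WD, adjusted p = 0.0737) and was not called by edgeR.

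Psmb10 replaces Psmb7. The ratio was below 1 in 14 of the 15 libraries, at 0.150 to 0.623 in CD CD45hi, 0.332 to 0.436 in CD CD45lo and 0.275 to 0.421 in WD CD45lo libraries. The WD CD45hi libraries were at 0.276, 0.859 and 1.52. The first lies within the range of the other groups and the last 2 above it. Psmb10 had log2 fold changes of -0.15 ± 0.42 and 0.45 ± 0.45 between CD45 levels and was not called.

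**Figure D5:**
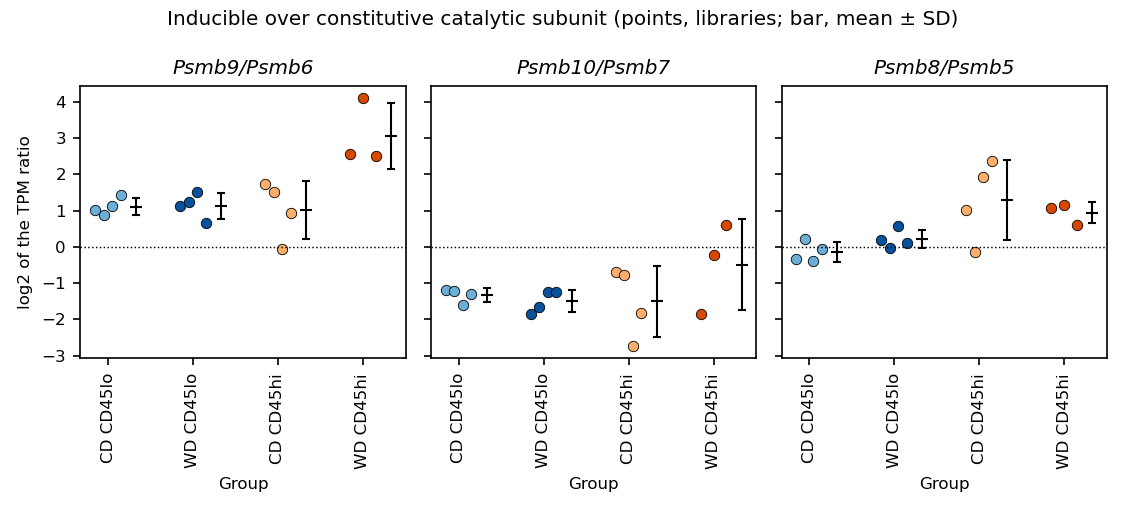
Log2 of the TPM ratio (y axis) of each inducible catalytic subunit to the constitutive subunit it replaces, with 1 point per library by group, the mean ± SD beside the points and a dotted line at equal levels. The 3 WD CD45hi libraries are highest for Psmb9/Psmb6 (5.67 to 17.1 as a ratio), and Psmb10/Psmb7 lies below equality in 14 of 15 libraries.

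Of 38 other genes of the pathway listed (activators, chaperones, ubiquitin genes, shuttle factors, regulators and the inducible subunits), 37 were found in the files and all 37 were tested. In WD-fed mice 3 were higher in CD45hi cells (Psmb9, Psme2 and Ubb) and 0 lower, against 9.12% of all genes called. The list had been shortened by a gene that is not reported here after values were seen, so its counts and median are a description only. In CD-fed mice 0 were called by edgeR, against 8.03% of all genes, with 5 at an unadjusted p under 0.05 (20.1% of all genes). DESeq2 called 2 (Psmb8 and Psmf1) and limma-voom 1 (Akirin2). Between diets in CD45hi cells 1 was higher on WD (Psmb9) and 0 lower, against 0.254% of all genes called. Between diets in CD45lo cells 0 were called by edgeR, DESeq2 or limma-voom, with 0 at an unadjusted p under 0.05 (0.822% of all genes). In the interaction edgeR called 0, against 0.00668% of all genes, with 2 at an unadjusted p under 0.05 (10.1% of all genes). There limma-voom called 0 and DESeq2 called 1 (Psmb9). The shares of all genes called by DESeq2 and limma-voom are not given here. The other cap subunits Adrm1 and Sem1 (listed as Shfm1) and the assembly factors Pomp and Psmg1 to Psmg4 were not called by this edgeR test.

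Ubb, a polyubiquitin gene, stood at 674, 536 and 566 cpm in WD CD45hi and 455, 354, 396 and 456 cpm in WD CD45lo libraries. The CD45 levels do not overlap, with a log2 fold change of 0.51 ± 0.15 (adjusted p = 0.0446, edgeR). Psme2, a subunit of the 11S activator, stood at 76.2, 51.5 and 43.2 cpm against 17.2, 29.98, 26.1 and 20.3 cpm in the same groups, again without overlap (1.28 ± 0.37, adjusted p = 0.0365, edgeR). Psme2 had fractional counts in all 15 libraries and Ubb in 14, so their reads were partly divided with other genes. The calls of Ubb and Psme2 were lost without single libraries, in 8 and 7 of 15 fits, and with either replicate block.

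Nfe2l1, the transcription factor that raises proteasome genes when the particle is inhibited, had a log2 fold change of -0.01 ± 0.24 in CD-fed and 0.68 ± 0.25 in WD-fed mice between CD45 levels (adjusted p = 0.992 and 0.106, edgeR). DESeq2 called the latter. The median log2 fold change of the 37 genes in WD-fed mice was 0.37, with 24 above 0, beside -0.03 for the 36 subunit genes with 17 above 0. No test was made between the 2 lists.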

How the data were processed

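CD11b+CD45hi and CD11b+CD45lo cells were sorted from brain, and poly(A) libraries were sequenced as 75 bp paired-end reads (bcl2fastq 2.18.0.12 and RSEM 1.2.12 per the submitters' processing notes). The authors trimmed bases under Phred 30, aligned reads to mm10 with Bowtie2 through RSEM, and deposited for each gene an expected count (not normalized and not whole where reads are divided), TPM, FPKM and an effective length. The annotation release and the platform of each library are not given in the sources used here, and the part of the platform in the results was not tested. Libraries were grouped by the sample titles. No label ties them to single animals, although an identifier in the file names recurs between CD45hi and CD45lo libraries, so p-values measure the spread between libraries.

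Expected counts were rounded, genes below 1 cpm in all but 1 library were dropped, and all 15 libraries were fitted with 4 groups (TMM, edgeR 4.0.16 quasi-likelihood in its earlier form, R 4.3.3). Genes with a Benjamini-Hochberg adjusted p under 0.05 over 14967 genes were called, with glmQLFTest for any change and glmTreat for 1.5-fold. SE is the log2 fold change over the square root of F. The 4 groups share an estimate of the spread for each gene. SEs, intervals and p-values of CD45lo comparisons thus carry the CD45hi spread, which was larger for most genes. Those of CD45hi comparisons carry the smaller CD45lo spread. TPM was used for levels and ratios, FPKM and effective length for alternatives. Named genes were those called, the 3 catalytic genes, the highest and lowest TPM of each role, the highest and lowest log2 fold change of each comparison, and called pathway genes with the inducible subunits. Psma1, Psma3, Psmb1, Psmd3, Psmd13, Nfe2l1, Akirin2 and Psmf1 were named after their values were seen. A gene of the pathway list is not reported here and was taken out of the list after its values were seen. The members and lists were chosen with earlier results of these data known. Alternatives were DESeq2 1.42.0, limma-voom (limma 3.58.1), the edgeR 4 form, other scalings and filters, the compared groups alone, replicate blocks and each library left out. A fit without mitochondrially encoded genes was added after seeing the data. The fits were run on simulated counts with the same spread in all 4 groups. Such counts cannot tell how the fits behave where CD45hi libraries spread more than CD45lo libraries.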

Additional observations from a re-analysis of the deposited data

Results flagged for a closer look

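Of 132 groups of 4 libraries examined (36 genes, 5 sums and 3 ratios in 3 groups), 7 had a library apart from the others by Dixon's ratio at the 95% level, or 5.3%, where chance gives about 1 in 20. The 7 are given as values. Psma8 stood at 35.9 cpm in CD CD45hi 3 against 0.459 to 2.57 cpm in the other CD CD45hi libraries (ratio 0.941). The beta ring summed to 314 cpm in CD CD45hi 4 against 201 to 215 cpm (0.874). In CD CD45lo cells Psma6 stood at 74.5 cpm in library 3 against 51.6 to 54.1 cpm (0.888), and Psmd13 at 12.5 cpm in library 1 against 7.58 to 8.06 cpm (0.903). In WD CD45lo cells Psmb1 stood at 17.4 cpm in library 4 against 21.0 to 21.6 cpm (0.853), Psmd2 at 32.2 cpm in library 3 against 47.1 to 47.7 cpm (0.962), and the ATPases summed to 335 cpm in library 2 against 272 to 275 cpm (0.964). The WD CD45hi group, with 3 libraries, was not examined.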

How the results depend on the processing

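The count of subunit genes called between CD45 levels (any change) went from 1 to 0 on both diets with upper quartile scaling, with library size alone, with the compared groups alone and with a replicate block by either numbering, in CD-fed mice also to 0 without a filter, and in WD-fed mice to 2 with limma-voom. Leaving out a library gave 0 to 1 (CD), 0 to 2 (WD) and, over 1.5-fold in WD-fed mice, 0 to 2. The diet count in CD45hi cells was 1 with DESeq2. The cause was not tested. The other counts of subunit genes stayed at 0 in the remaining alternatives run. The shares of all genes called in these alternatives are not given here. A changed count of subunit or pathway genes in this section thus cannot be told apart from a change over all genes. The median over the 36 genes in WD-fed mice went from -0.03 to -0.25 with upper quartile scaling and -0.34 with library size alone, where that of all genes was -0.21 and -0.31. In CD-fed mice it went from 0.08 to -0.08 and -0.16 in these fits, beside -0.12 and -0.20 over all genes. Without mitochondrially encoded genes the medians were 0.09 and -0.03. Other pathway genes called in CD-fed mice numbered 2 with DESeq2, 3 with the edgeR 4 form and 1 with limma-voom, upper quartile, library size alone and the compared groups alone, in place of 0. In WD-fed mice they numbered 5 with DESeq2 and 1 with upper quartile, library size alone, no filter, the compared groups alone and either replicate block, in place of 3. Between diets in CD45hi cells they numbered 2 with DESeq2 and with the edgeR 4 form and 0 with the compared groups alone, in place of 1, and in the interaction 1 with DESeq2 in place of 0. Leaving out a library gave 0 to 1, 1 to 4 and 0 to 1 in the first 3 of these. The highest level per length was 18.2 times the lowest in TPM, leaving out Psma8 and Psmb11, and 18.5 and 18.7 times with FPKM and with cpm over effective length. For most values the counting error, taken from the read counts alone, was well under the spread between replicates, but Psma8 had 0 counts in 2 libraries. The part of depth in that spread was not tested. Libraries with the same number did not deviate together (correlation of deviations -0.02 to 0.07 in each pair). Of 7 CD45hi libraries, 3 (titles) or 4 (file names) correlated best with their own number. These correlations cannot tell whether a CD45hi and a CD45lo library came from the same animal. The numbers were not taken to pair libraries in the main fit, and the calls lost under a replicate block depend on that choice.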
